A study of Mus musculus with 75 samples.

Results

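The genes described here are 10 members of the circadian clock and its output in mouse liver: Arntl, Npas2, Per1, Per2, Per3, Nr1d1, Nr1d2, Dbp, Ciart and Noct. They were taken by symbol from a list of known clock genes, with no threshold on a measured value, and all 10 were found among the 55536 genes of the count table. Liver RNA was sequenced from C57Bl/6 mice, all labelled male, whose dams were given drinking water with vehicle or with tributyltin (TBT), an organotin, until weaning. The TBT water was 3.07 µM, a dose of 0.5 mg/kg daily. At the age of 3 weeks there were 7 vehicle and 8 TBT samples. The groups of 5 months were 8 vehicle livers, 16 livers of TBT mice labelled low-risk and 10 of TBT mice labelled high-risk. Those of 10 months were 6 vehicle livers, 5 low-risk TBT livers, 5 uninvolved livers of high-risk TBT mice and 7 tumors of TBT mice. A further vehicle library of 10 months was labelled as a tumor and entered no comparison. The labels give no hour of collection and no feeding state, so the part of either in the differences below was not tested. How risk was assigned is also not given in the labels.

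The mammalian clock is a feedback loop of transcription. ARNTL (BMAL1) pairs with CLOCK or with its relative NPAS2 and switches on genes that carry an E-box, among them the Per genes, Nr1d1, Nr1d2, Dbp and Ciart. PER proteins then repress this pair, and the nuclear receptors NR1D1 and NR1D2 (REV-ERB) repress Arntl and Npas2, so that in liver Arntl and Npas2 peak at about the opposite time of day from Nr1d1, Dbp and Per3. The liver clock also follows feeding, glucocorticoids and body temperature, and Per1 and Per2 respond to these signals directly.

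All positions are those of the GENCODE M21 annotation of GRCm38, and all members are protein-coding. The activators are Arntl (ENSMUSG00000055116, chromosome 7, 113207465 to 113314126) and Npas2 (ENSMUSG00000026077, chromosome 1, 39193731 to 39363236). The period genes, repressors of that pair, are Per1 (ENSMUSG00000020893, chromosome 11, 69095217 to 69109960), Per2 (ENSMUSG00000055866, chromosome 1, 91415982 to 91459324) and Per3 (ENSMUSG00000028957, chromosome 4, 151003652 to 151044665). Nr1d1 (ENSMUSG00000020889, chromosome 11, 98767932 to 98775333) and Nr1d2 (ENSMUSG00000021775, chromosome 14, 18204054 to 18239127) encode the REV-ERB receptors. Dbp (ENSMUSG00000059824, chromosome 7, 45705088 to 45710203) encodes an output transcription factor that binds D-boxes, and Ciart (ENSMUSG00000038550, chromosome 3, 95878503 to 95882251) encodes a further repressor of the clock. Noct (ENSMUSG00000023087, chromosome 3, 51224447 to 51251644) encodes nocturnin, a phosphatase of NADP(H) that is rhythmic in liver. On the opposite strand, exons of Nr1d1 share 263 bp with Thra, those of Dbp share 539 bp with Sphk2 and those of Arntl share 33 bp with the antisense gene Gm45355. The kit keeps strand, but the strand setting of the counting is not given in the sources used here, so the values of these genes may hold reads of their partners.

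The motifs through which clock factors act were searched in the 250 bases before the RefSeq start sites (GRCm38.p6), on both strands, for the 9 members that have an entry. The E-box CACGTG was in 6.02% of all 32851 such windows of the genome's genes, the D-box (TTATGTAA or TTACGTAA) in 0.932%, and AGGTCA or GGGTCA, the core that REV-ERB receptors bind, in 23.8%. Matches were found near the starts of Ciart, Per3, Per1 and Nr1d2, and the stretches of the 3 with more than 1 match are shown because closely spaced matches are seen best in the letters themselves, and Ciart and Per3 are also among the genes that vary most below. Each is given 5′ to 3′ on the strand of the gene, with motifs in capitals. Ciart (chr3:95882255-95882356, minus strand) has 3 E-boxes, Per3 (chr4:151044804-151044882, minus strand) has 2 D-boxes, and Per1 (chr11:69098771-69098829, plus strand) has an E-box followed by the reverse complement of AGGTCA.
Ciart: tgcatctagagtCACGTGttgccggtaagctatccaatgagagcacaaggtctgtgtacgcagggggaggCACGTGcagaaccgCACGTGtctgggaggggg
Per3: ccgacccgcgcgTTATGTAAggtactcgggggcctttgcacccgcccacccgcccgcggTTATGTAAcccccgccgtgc
Per1: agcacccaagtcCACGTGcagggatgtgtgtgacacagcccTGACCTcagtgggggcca
The stretches of Ciart and Per3 lie outside the annotated gene, and that of Per1 lies within the gene, in no exon. Counted from the start site, the E-boxes of Ciart begin at bases -116, -58 and -44 and the D-boxes of Per3 at -205 and -158. In Per1 the E-box begins at -166 and the other motif at -137, and the match in Nr1d2 begins at -77. The window of another start site of Per1 (chr11:69099902-69100151) held 0 matches. A match is a description of letters, and binding was not measured in these samples.

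Totals ran from 2.83 to 45.4 M counts per library over 75 libraries, and 6 libraries stood apart by low depth, many detected genes or mitochondrial RNA. These were 5-month high-risk livers 10 and 15, low-risk liver 16, vehicle 9, a library of 3-week vehicle 3, and the vehicle library labelled as a tumor. Of the livers of 5 months, 10 low-risk, 7 high-risk and 1 vehicle were sequenced in batch 2, and all other libraries in batch 1. Uninvolved livers 3 and 6 differed far less (chi-square per degree of freedom 3.89) than any other pair of that group (46.8 or more) and were counted as 1 sample. The library of 3-week TBT liver 4 went against its male label, with 348 CPM of Xist, the RNA of the inactive X chromosome, and 4.10 CPM of the Y-linked Ddx3y. Low-risk liver 24 of 5 months had 84.6 CPM of Xist with 102 CPM of Ddx3y, while all other libraries had at most 8.39 CPM of Xist and at least 36.4 CPM of Ddx3y. Without these livers the numbers of members called below were the same: 0 at 3 weeks without liver 4, and without liver 24 4 between high-risk and low-risk livers, 2 between high-risk livers and vehicles, and 0 for low-risk livers against vehicles and for the interaction. Of all genes, 0 of 13879 were called without liver 4. Without liver 24 they were 5756, 2550 and 0 of 14755, and 208 of 16104 for the interaction. Hepatocyte markers were high in every library, with 40018 to 202095 CPM summed over Alb, Apoa1, Apob and Ttr, which encode plasma proteins, and Cps1, which encodes a urea cycle enzyme. CPM here and below are counts of a gene per 1 M counts of its library, with the library size scaled by TMM. Those of Xist and Ddx3y above used the total counts without that scaling. In bulk liver, fewer cells of a type and less RNA per cell cannot be told apart. The labels name mice by number but do not say whether mice of a group shared a litter, so p-values measure the spread between these samples.

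All 10 members were detected in every sample, the lowest with 1 count of Npas2 or Ciart. Per kilobase of exon, the median level over the 72 samples in groups was highest for Nr1d2 (9.93 RPKM) and Nr1d1 (9.07 RPKM), the REV-ERB pair. Arntl followed at 4.21, Per1 at 2.31, Dbp at 1.42, Per2 at 1.26, Noct at 1.11, Npas2 at 1.03, Per3 at 0.429 and Ciart at 0.321 RPKM. The ranges of neighbours in this order overlapped over the samples. Levels below are CPM and compare samples for 1 gene at a time.

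**Figure D1:**
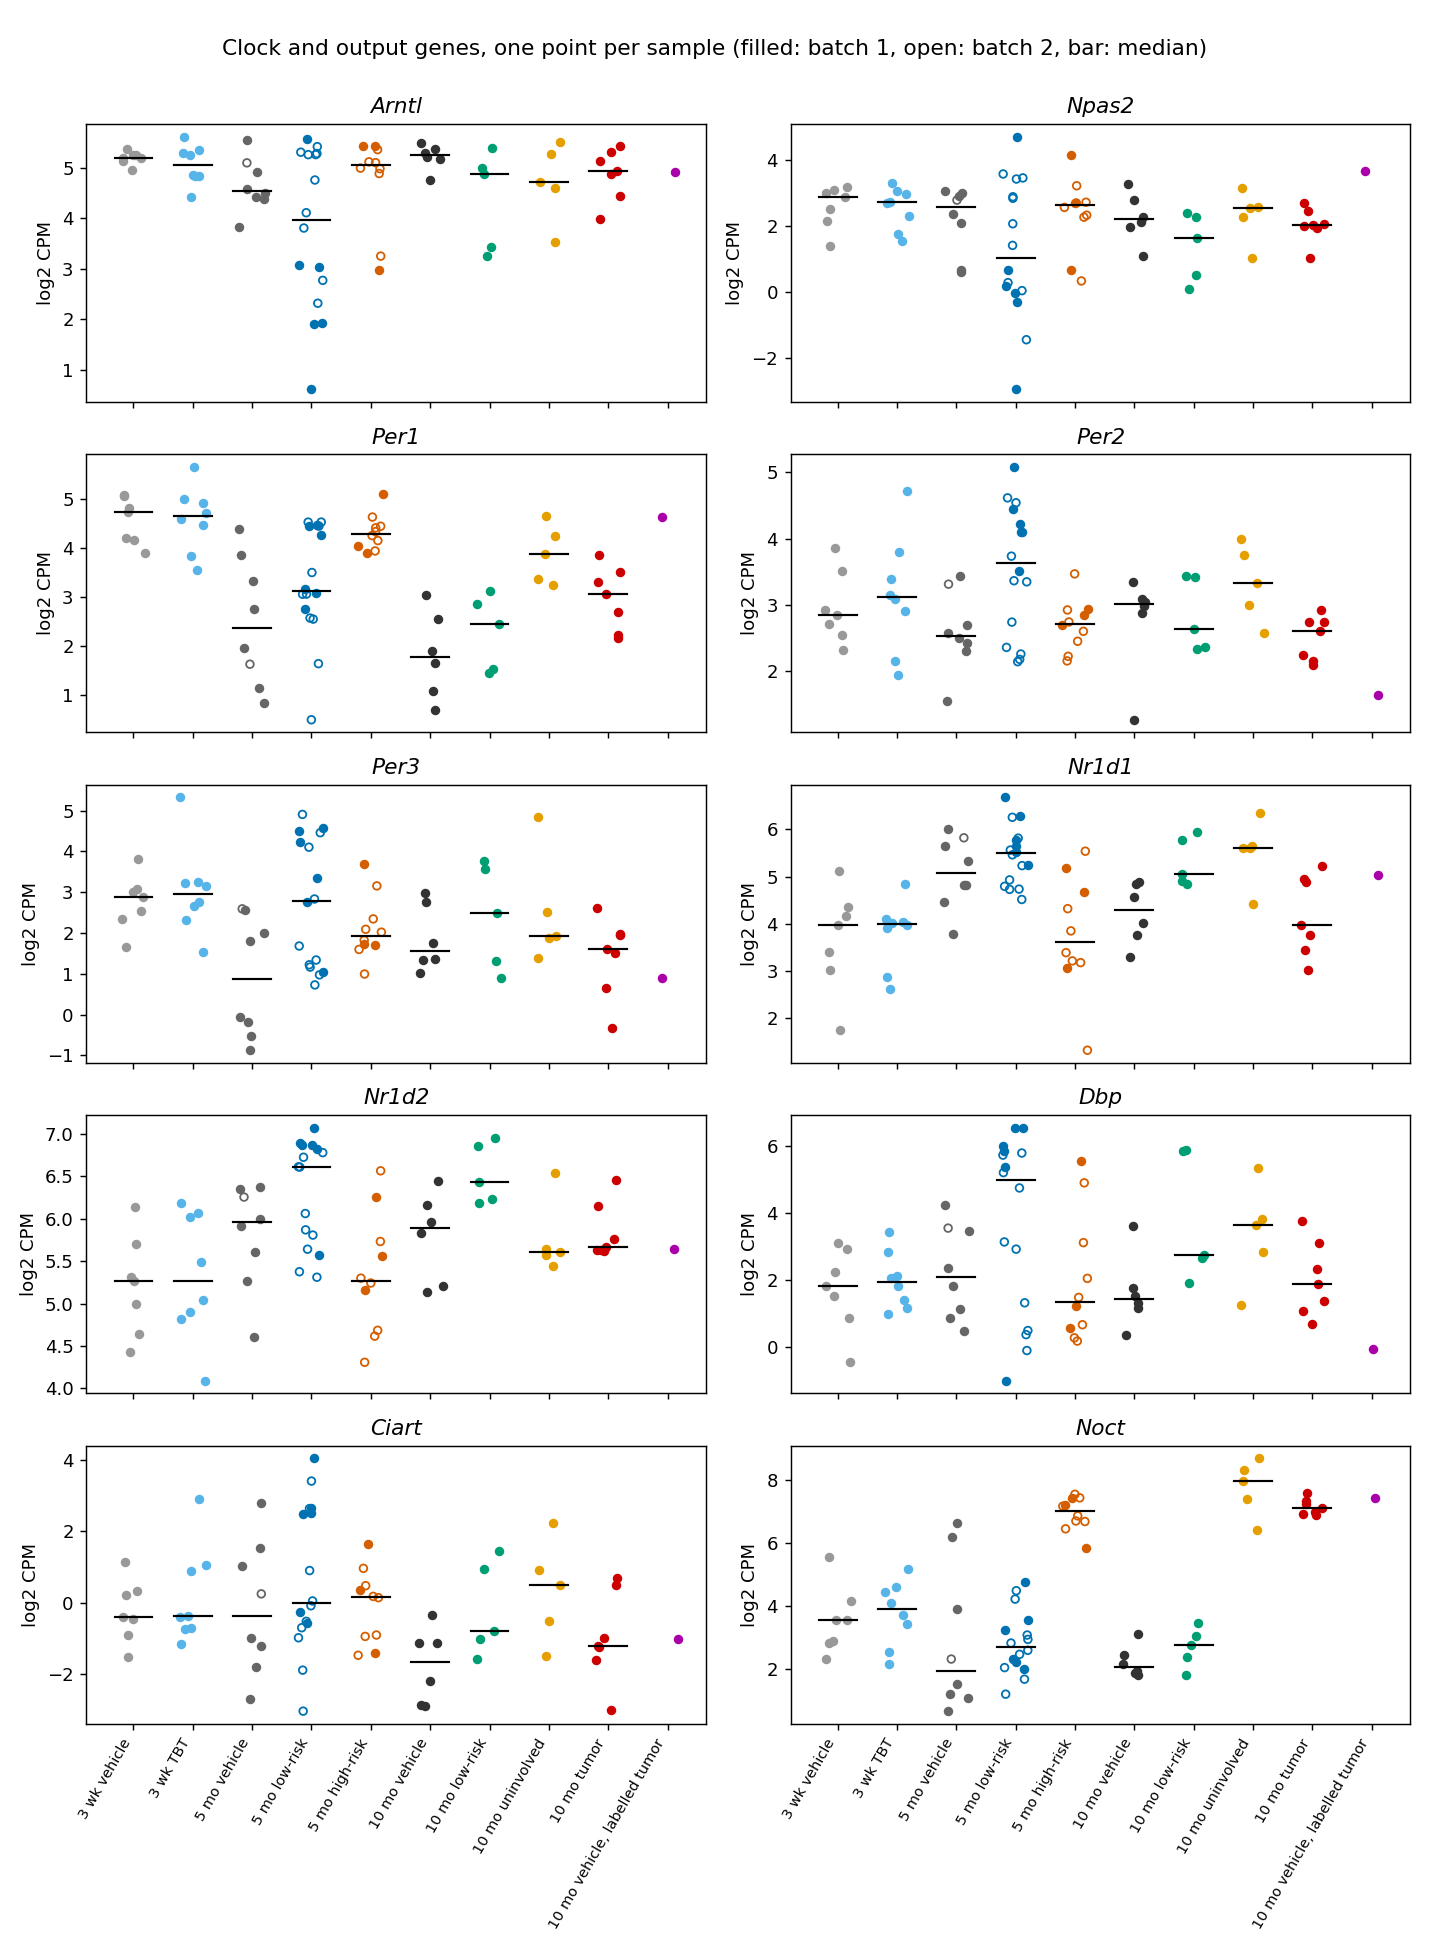
Level of each clock gene (log2 CPM, vertical axis) in every sample, by group along the horizontal axis, with filled points for batch 1, open points for batch 2 and a bar at the group median. The 16 low-risk livers of 5 months spread most for Arntl, Npas2 and Dbp, and Noct is high in all high-risk livers, uninvolved livers and tumors.

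The 5-month low-risk livers ranged widely in clock genes. Arntl ran from 1.46 to 47.2 CPM (median 15.6) in these 16 livers, a 32.3-fold range, while in 3-week vehicles it ran from 31.1 to 41.6 CPM (1.34-fold). Npas2, the partner of Arntl, ran from 0.0865 to 26.1 CPM (median 2.07). Dbp ran from 0.468 to 93.3 CPM (median 31.9), a 199-fold range, and Ciart from 0.0807 to 16.5 CPM (median 0.935). The livers lowest in Arntl were the highest in Dbp: the 7 with the least Arntl (1.46 to 8.39 CPM) had 41.4 to 93.3 CPM of Dbp, and the 6 with the most (38.2 to 47.2 CPM) had 0.468 to 7.53 CPM of Dbp. The same 7 livers had 6.65 to 30.0 CPM of Per3 and the same 6 had 1.61 to 2.48 CPM. Of the 6 low-risk livers in batch 1, 5 were among the 7 with least Arntl, and the remaining liver 16 had the most Arntl of the group and was among the libraries that stood apart. In batch 2, Arntl ran from 4.93 to 42.7 CPM, so the wide range was present there without liver 16.

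As SD of log2 CPM, the spread of 5-month low-risk livers was 1.57 for Arntl, 2.09 for Npas2, 1.56 for Per3, 2.65 for Dbp and 2.06 for Ciart, the highest of the 9 groups for each of these 5 genes and also for Per2 (0.97). Per1 and Noct spread most in 5-month vehicles (1.30 and 2.37), Nr1d1 in 5-month high-risk livers (1.22) and Nr1d2 in 3-week TBT livers (0.74). Across groups the median SD was largest for Dbp (1.39), Ciart (1.31) and Per3 (1.09), and smallest for Arntl (0.52). No test of these spreads was made.

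**Figure D2:**
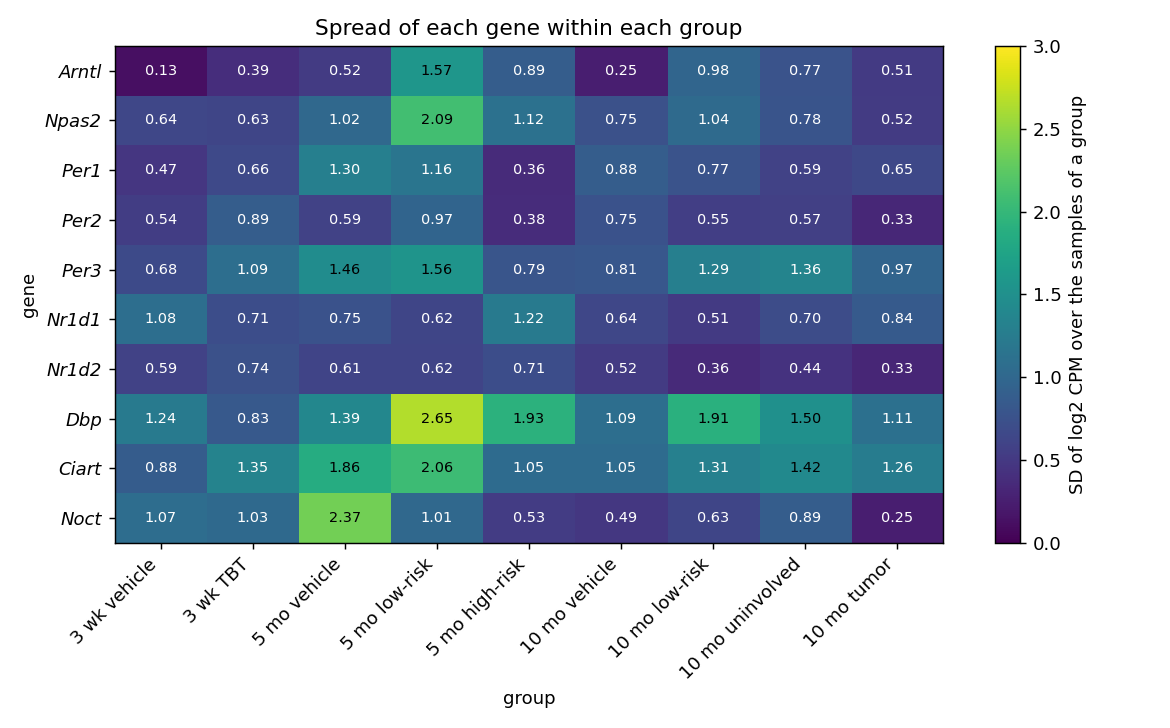
SD of log2 CPM over the samples of each group (columns) for each clock gene (lines), as colour and number. Dbp in 5-month low-risk livers has the highest value, 2.65, and Arntl in 3-week vehicles the lowest, 0.13.

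Low Arntl with high Dbp also occurred in single livers of other groups. Low-risk livers 2 and 4 of 10 months had 10.8 and 9.47 CPM of Arntl with 59.0 and 57.3 CPM of Dbp, while livers 8, 9 and 10 had 29.4 to 42.2 CPM of Arntl and 3.74 to 6.64 CPM of Dbp. High-risk livers 4 and 1 of 5 months had 7.80 and 9.48 CPM of Arntl with 47.3 and 29.9 CPM of Dbp, and the other 8 had 29.5 CPM of Arntl or more and at most 8.64 CPM of Dbp. Uninvolved liver 1 had 11.5 CPM of Arntl and 40.9 CPM of Dbp, and tumor 1, from the same mouse by its number, had 15.9 and 13.5 CPM. In 10-month vehicles, where Arntl ran from 26.9 to 44.9 CPM, the liver lowest in Arntl (vehicle 2) was the highest in Dbp, at 12.2 CPM.

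Whether these genes moved together within a group was examined by correlating log2 CPM over the samples of a group and batch, in 8 sets of 6 to 10 samples and 6 gene pairs, 48 tests in all. Arntl and Dbp correlated negatively in 8 of 8 sets (Pearson r from -0.90 to -0.67), and Arntl and Npas2 positively in 8 of 8 (0.32 to 0.97). Nr1d1 and Dbp correlated positively in 7 of 8 sets, Per1 and Noct in 7 of 8, Dbp and Per2 in 6 of 8, and Arntl and Nr1d1 negatively in 7 of 8. After Benjamini-Hochberg adjustment 4 of the 48 passed. In the 10 low-risk livers of batch 2, Arntl and Npas2 had r 0.96 (permutation p 9e-05, adjusted 0.0043, Spearman rho 0.87, permutation p 0.0021, adjusted 0.034). In the same livers Arntl and Dbp had r -0.84 (permutation p 0.0021, adjusted 0.025, rho -0.89, permutation p 0.0012, adjusted 0.029), and Dbp and Per2 had r 0.88 (permutation p 0.0013, adjusted 0.021, rho 0.90, permutation p 0.00082, adjusted 0.029). Without the 2 livers farthest from the median these were 0.95, -0.77 and 0.83, and without liver 24 they were 0.96, -0.84 and 0.88. In 8 TBT livers of 3 weeks, Per1 and Noct had r 0.95 (exact permutation p 0.00067, adjusted 0.016), rho 0.88 (exact permutation p 0.0072, adjusted 0.070) and r 0.88 without the 2 farthest, and r was 0.97 without liver 4. Single sets went the other way: Dbp and Per2 had r -0.85 in 3-week vehicles, and Arntl and Nr1d1 had r 0.72 in the 6 low-risk livers of batch 1, neither past the adjustment. In 10-month tumors, 5-month high-risk livers of batch 2 and 5-month vehicles, r of Arntl and Dbp lay between -0.17 and 0.07 without the 2 farthest samples, so it rested on those samples.

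**Figure D3:**
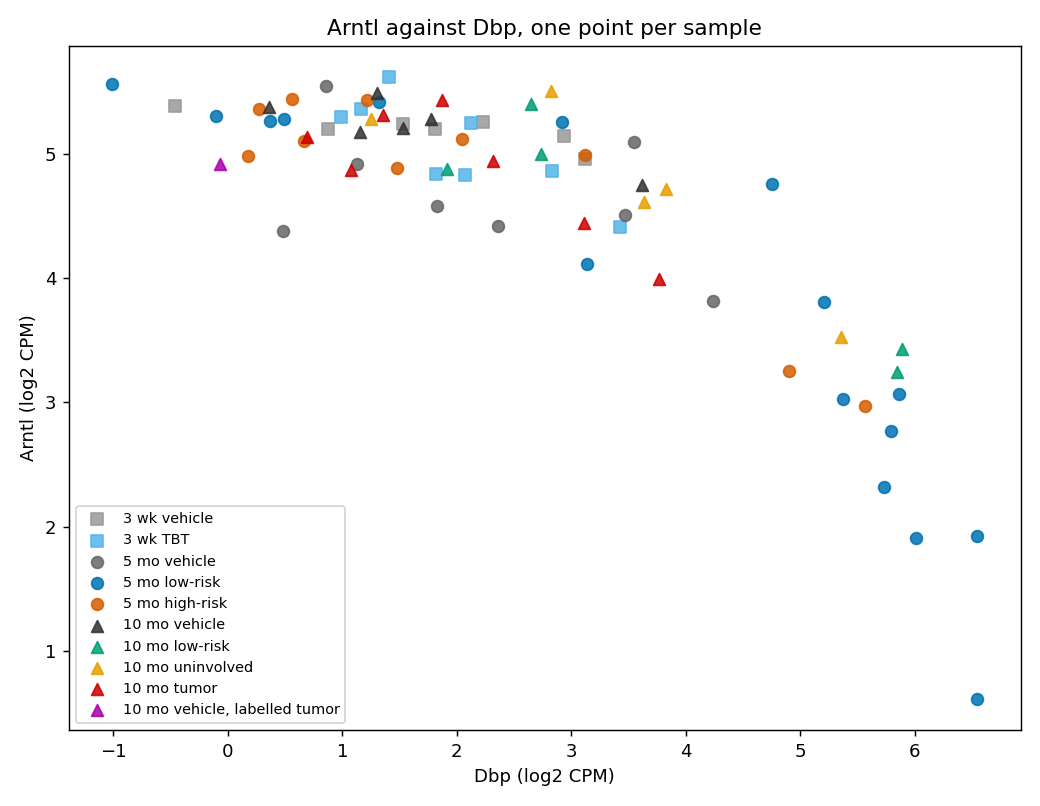
Arntl (vertical axis, log2 CPM) against Dbp (horizontal axis, log2 CPM), with 1 point per sample, coloured by group and shaped by age. Arntl stays near the top of its range while Dbp is low and falls among the samples with the most Dbp, which are mostly 5-month low-risk livers.

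Genes outside the 10 members whose pattern was most like that of Arntl were sought among 12175 genes, as the correlation of log2 CPM after removing the mean of each group and batch, over 71 samples in 11 sets. The samples share libraries and their depth, and the values are descriptions. The highest were Pnrc1 (0.89), Lgalsl (0.87), Ypel2 (0.84), Nfil3 (0.82), which encodes a repressor at D-boxes, and Btg1 (0.81). The lowest of these other genes were Tef (-0.77), which encodes a D-box activator related to DBP, Usp2 (-0.69), Tbc1d10a (-0.67), Slc5a6 (-0.66) and Lipe (-0.63). For Dbp the highest outside the members were Tef (0.91), Tbc1d10a (0.76), Gys2 (0.73), which encodes liver glycogen synthase, Upp2 (0.71) and Pcsk4 (0.71), and the lowest were the clock repressor Cry1 (-0.82), Pnrc1 (-0.80), Lgalsl (-0.78), Lonrf3 (-0.75) and Nfil3 (-0.75). Among the members themselves, Arntl had 0.81 with Npas2, -0.84 with Dbp, -0.68 with Ciart and -0.68 with Per3, and Dbp had -0.84 with Npas2, 0.81 with Nr1d2 and 0.75 with Per3, values past some of those of the other genes. Noct had -0.11 with Arntl and 0.10 with Dbp, so within groups it did not run with either.

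At weaning, the question was whether maternal TBT had moved the clock. Arntl ran from 21.3 to 49.04 CPM (median 33.5) in TBT livers and from 31.1 to 41.6 CPM (median 36.7) in vehicles. Dbp ran from 1.95 to 10.7 CPM (median 3.83) against 0.685 to 8.66 CPM (median 3.47), and the groups overlapped for every member. TBT liver 6 had the most Per1 (50.5 CPM), Per2 (26.4), Per3 (40.0), Dbp (10.7), Ciart (7.44) and Noct (35.8) and the least Arntl (21.3) of its group. With edgeR's quasi-likelihood test and Benjamini-Hochberg adjustment, 0 of 10 members passed an adjusted p of 0.05, as did 0% of the 14050 genes tested, and 0 members had an unadjusted p under 0.05. The log2 fold changes of members ran from -0.09 (Arntl, SE 0.14) to 0.92 (Ciart, SE 0.61), with a median of 0.10 against 0.01 over all genes, and DESeq2 also called 0 members.

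At 5 months, high-risk livers had more Noct and less Nr1d1, Nr1d2 and Per2 than low-risk livers. These 4 of the 10 members passed the test, a share near the 38.9% of 14773 genes that passed (adjusted p under 0.05, edgeR, batch as a covariate). The members' median log2 fold change was -0.92, and that of all genes was -0.01.

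Noct ran from 57.5 to 187 CPM (median 129.9) in high-risk livers and from 2.26 to 27.1 CPM (median 6.51) in low-risk livers. All 10 high-risk livers lay above all 16 low-risk livers. How many of all genes separated these groups without overlap was not counted. The log2 fold change of Noct was 3.88 (SE 0.54, edgeR adjusted p 2.1e-06), and it was 3.61 within batch 1 and 3.92 within batch 2. The batch 1 value, from 3 against 6 livers, did not pass there (edgeR adjusted p 0.086).

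The REV-ERB genes were lower in high-risk livers. Nr1d1 ran from 2.48 to 46.4 CPM (median 12.4) against 22.8 to 102 CPM (median 45.1), and 7 of 10 high-risk livers lay below every low-risk liver. Its log2 fold change was -1.32 (SE 0.33, edgeR adjusted p 0.0018), with -1.34 within batch 1 and -1.32 within batch 2. Nr1d2 ran from 19.8 to 94.6 CPM (median 38.6) against 39.6 to 134 CPM (median 97.6), and 6 of 10 lay below every low-risk liver. It changed by -0.85 (SE 0.23, edgeR adjusted p 0.0034), with -0.998 and -0.80 within batches 1 and 2. The high-risk livers that overlapped included livers 1 and 4, which had the low Arntl described above. Within a batch alone, Nr1d1 passed in batch 2 (edgeR adjusted p 0.037) but not in batch 1 (0.10), and Nr1d2 passed in neither (0.092 and 0.070). Of all genes, 773 of 16465 passed in batch 1 alone and 5403 of 19245 in batch 2 alone.

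Among the period genes only Per2 passed. It ran from 4.41 to 11.01 CPM (median 6.52) in high-risk and from 4.36 to 33.8 CPM (median 12.3) in low-risk livers, and the groups overlapped over the whole range of high-risk livers. Its log2 fold change was -0.99 (SE 0.30, edgeR adjusted p 0.0081), with -1.49 within batch 1 and -0.73 within batch 2, where it did not pass (0.17). Per1 ran from 14.9 to 34.7 CPM (median 19.6) against 1.35 to 23.1 CPM (median 8.70), and it differed by 0.80 on the log2 scale (SE 0.37, edgeR adjusted p 0.082). Per3 had -1.08 (SE 0.54, edgeR adjusted p 0.11), Dbp -1.63 (SE 0.77, 0.095) and Ciart -1.46 (SE 0.69, 0.091). Arntl (0.62, SE 0.41) and Npas2 (0.28, SE 0.58) did not pass either, and all these genes overlapped between the groups.

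**Figure D4:**
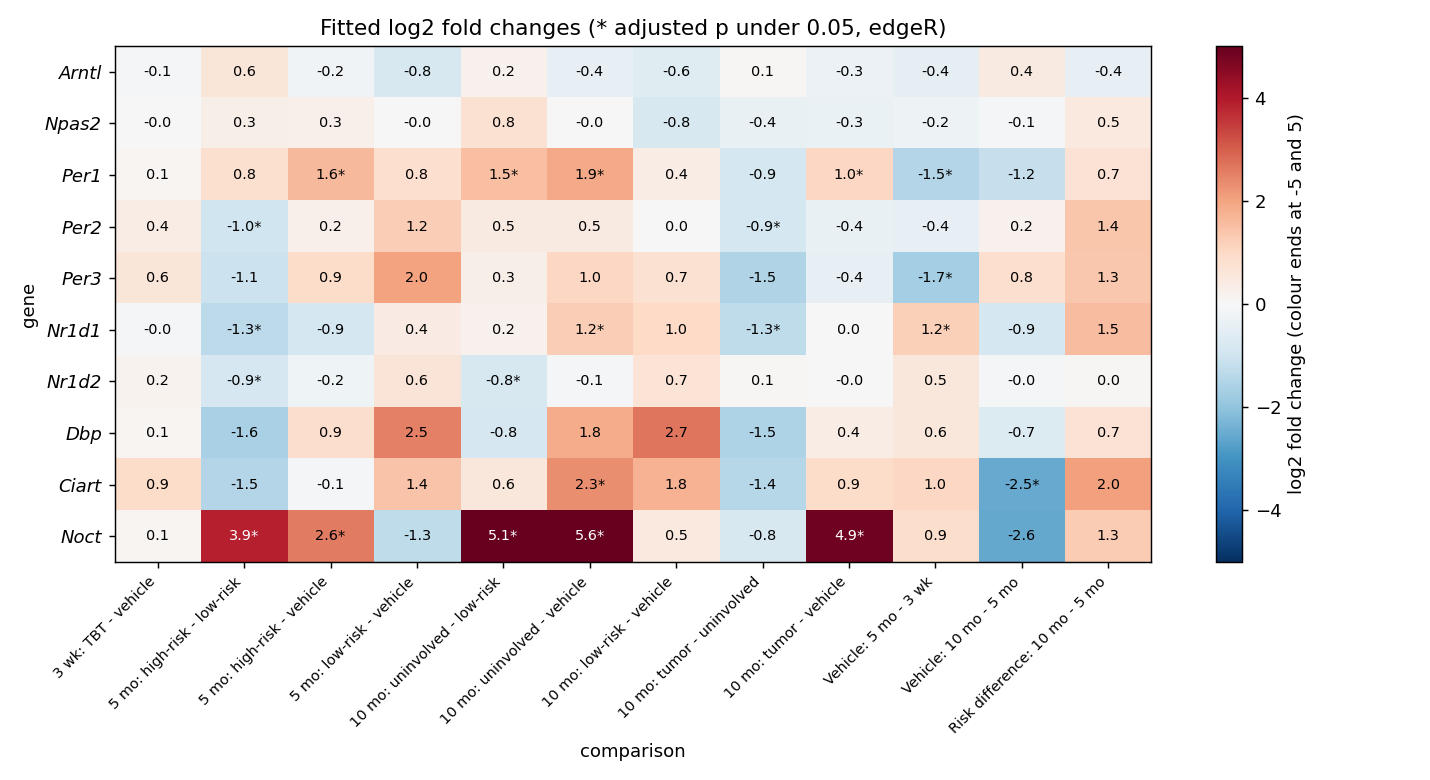
Fitted log2 fold change of each clock gene (lines) in each comparison (columns), as colour and number, with an asterisk where the edgeR adjusted p was under 0.05. Noct has the largest values, from 2.6 to 5.6 in the 5 comparisons of high-risk liver or tumor in which it passed.

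Against 5-month vehicles, high-risk livers had more Per1 and Noct. These were 2 of 10 members, where 15.8% of 14773 genes passed. At an unadjusted p under 0.05 (edgeR) there were 3 members (Per1, Nr1d1 and Noct) and 4422 genes. The 3 genes lower than in low-risk livers did not pass against vehicles. Nr1d1 differed by -0.90 (SE 0.39, edgeR adjusted p 0.12), Nr1d2 by -0.22 (SE 0.28) and Per2 by 0.24 (SE 0.37). Per1 ran from 1.76 to 20.9 CPM (median 5.25) in vehicles, and its log2 fold change was 1.63 (SE 0.51, edgeR adjusted p 0.027). Noct ran from 1.56 to 99.8 CPM (median 3.87) in vehicles and changed by 2.61 (SE 0.74, edgeR adjusted p 0.016). The vehicles overlapped the high-risk range of Noct through livers 4 and 6 (99.8 and 73.1 CPM), while the other 6 had 1.56 to 15.1 CPM. Both calls were lost within batch 1 (edgeR adjusted p 0.37 for Per1 and 0.43 for Noct) and without the filter on low counts (0.11 and 0.066). In batch 1 alone 0 of 16465 genes passed, so that loss was not particular to these 2 genes. Without the filter 1211 of 48210 genes passed. The call of Per1 was also lost without the libraries that stood apart (0.081), and that of Noct in a fit of only these 2 groups (0.073).

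Low-risk livers of 5 months were compared with the same vehicles to ask whether exposure without high risk moved these genes. The test called 0 of 10 members and 0% of 14773 genes (edgeR), with 4 members (Per2, Per3, Nr1d2 and Dbp) and 934 genes at an unadjusted p under 0.05, and DESeq2 called 0 members. The log2 fold change was 2.53 for Dbp (SE 0.90), 2.01 for Per3 (SE 0.65), 1.22 for Per2 (SE 0.33) and -0.79 for Arntl (SE 0.50), and the lowest adjusted p was 0.39 (edgeR, Per2). Vehicles ran from 14.1 to 46.6 CPM of Arntl and from 1.29 to 18.8 CPM of Dbp, inside the low-risk range for both genes.

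At 10 months, uninvolved liver of high-risk mice had more Noct and Per1 than either low-risk or vehicle liver. All uninvolved libraries were deeper (34.8 to 44.6 M counts) than those of low-risk livers, vehicles and tumors of that age (at most 33.5 M). They also had more mitochondrial RNA (4.20% or more against at most 3.83%) and more detected genes (24676 or more against at most 23868). These library traits cannot be told apart from the group, and their part in the differences was not tested. Noct was 85.3, 170.2, 251, 319 and 411 CPM in the 5 uninvolved livers, 3.50, 5.16, 6.72, 8.19 and 11.1 CPM in the 5 low-risk livers, and 3.49 to 8.59 CPM (median 4.17) in the 6 vehicles. Every uninvolved liver lay above every other of both groups. The log2 fold change of Noct was 5.12 against low-risk livers (SE 0.45, edgeR adjusted p 7.4e-07) and 5.596 against vehicles (SE 0.43, edgeR adjusted p 1.2e-07). It passed in every alternative run for these comparisons, with adjusted p up to 0.024 (edgeR) and a log2 fold change as low as 2.999, when the vehicle library labelled tumor was taken as a vehicle.

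Per1 was 9.49, 10.3, 14.6, 18.9 and 25.1 CPM in uninvolved livers, 2.70, 2.85, 5.45, 7.25 and 8.73 CPM in low-risk livers, and 1.60 to 8.23 CPM (median 3.41) in vehicles, again without overlap. It rose by 1.497 against low-risk livers (SE 0.43, edgeR adjusted p 0.0093) and by 1.88 against vehicles (SE 0.42, 0.0013). How many of all genes separated these groups without overlap, as Noct and Per1 did, was not counted. Taking that vehicle library, which had 24.7 CPM of Per1, as a vehicle gave 1.09, which did not pass (edgeR adjusted p 0.13).

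Nr1d2 was the third member called against low-risk livers. It was 43.6, 47.4, 48.9, 49.8 and 92.7 CPM in uninvolved and 72.5, 74.9, 86.3, 116 and 124 CPM in low-risk livers, with overlap through uninvolved liver 1. Its log2 fold change was -0.79 (SE 0.26, edgeR adjusted p 0.018). In all, 3 of 10 members passed against low-risk livers, where 52.4% of 16338 genes passed, and 4 of 10 against vehicles, where 57.7% of 16338 passed, so neither share exceeded that of all genes.

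The other calls against vehicles were Nr1d1 and Ciart. Nr1d1 was 21.4, 48.6, 48.9, 49.8 and 81.8 CPM in uninvolved livers and 9.86 to 29.6 CPM (median 19.9) in vehicles, with overlap through uninvolved liver 5. It rose by 1.24 (SE 0.34, edgeR adjusted p 0.0056). Ciart was 0.341, 0.682, 1.405, 1.88 and 4.72 CPM against 0.115 to 0.763 CPM (median 0.315), and it rose by 2.33 (SE 0.70, edgeR adjusted p 0.0094) with overlap between the groups. Ciart is close to its counting limit in these vehicles, of which 2 had 3 counts. Against low-risk livers Nr1d1 differed by 0.23 (SE 0.35) and Ciart by 0.57 (SE 0.66), and neither passed. Dbp, at 1.85 against vehicles (SE 0.89, edgeR adjusted p 0.088), did not pass. It passed with DESeq2 (adjusted p 0.046), in a fit of only these 2 groups (edgeR, 0.033) and without vehicle 2 (2.59, edgeR adjusted p 0.028). It also passed under the replicate block (edgeR, 0.049). The 3 numbers shared there do not name a mouse, so that call says nothing of a stronger effect.

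Low-risk livers of 10 months against vehicles gave 0 of 10 members and 0% of 16338 genes (edgeR), with 4 members (Nr1d1, Nr1d2, Dbp and Ciart) and 688 genes at an unadjusted p under 0.05, and 0 members by DESeq2. The log2 fold change of Dbp was 2.68 (SE 0.90), carried by low-risk livers 2 and 4 at 59.0 and 57.3 CPM beside 3.74 to 6.64 CPM in the other 3. That of Nr1d1 was 1.02 (SE 0.34), from 28.6, 30.1, 33.1, 54.4 and 61.1 CPM against at most 29.6 CPM in vehicles.

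Whether the difference by risk changed with age (uninvolved against low-risk at 10 months, minus high-risk against low-risk at 5 months) was examined as an interaction. It gave 0 of 10 members, beside 0.448% of 16084 genes (edgeR), with 3 members (Per2, Nr1d1 and Noct) and 1945 genes at an unadjusted p under 0.05, and 0 members by DESeq2. Nr1d1 had the lower level in high-risk livers at 5 months and no such difference at 10 months, and the interaction was 1.53 (SE 0.56, edgeR adjusted p 0.24). For Noct it was 1.26 (SE 0.62, edgeR adjusted p 0.41).

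Tumors had less Per2 and Nr1d1 than uninvolved liver. Per2 ran from 4.25 to 7.52 CPM (median 6.04) in 7 tumors and was 5.91, 7.96, 9.98, 13.4 and 15.8 CPM in uninvolved livers, and it differed by -0.88 on the log2 scale (SE 0.24, edgeR adjusted p 0.022). Nr1d1 ran from 8.12 to 37.3 CPM (median 15.7) in tumors and changed by -1.25 (SE 0.39, edgeR adjusted p 0.044). The groups overlapped for both genes. These 2 of 10 members compare with 18.1% of 16362 genes. Since tumor and uninvolved liver with the same number carry 1 mouse identifier in the labels, the fit was repeated with a replicate block for the mouse. Over 6 pairs, with uninvolved livers 3 and 6 kept apart, 4 members passed: Per2, Nr1d1, Per1 (-0.75, edgeR adjusted p 0.036) and Dbp (-1.16, 0.022). Over the 4 pairs without mice 3 and 6, Per2 did not pass (-0.58, edgeR adjusted p 0.11), and Nr1d1, Per1, Dbp and Noct (-1.12, 0.019) did. Of all genes, 1920 of 16404 passed over 6 pairs and 3037 of 16728 over 4 pairs.

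Both calls lay close to the threshold. That of Per2 was lost without uninvolved liver 1 (-0.68, edgeR adjusted p 0.077) or 7 (-0.76, 0.064). That of Nr1d1 was lost without the filter on low counts (0.11) and without tumor 1, 5, 6, 11 or 12 or without uninvolved liver 1, 3, 7 or 12, with single-sample adjusted p from 0.050 to 0.13 and a log2 fold change from -1.36 to -0.98.

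Against vehicles, tumors had more Noct and Per1, 2 of 10 members where 45.9% of 15293 genes passed. Noct ran from 119 to 192 CPM (median 137) in tumors, above every vehicle (3.49 to 8.59 CPM), a difference of 4.85 on the log2 scale (SE 0.22, edgeR adjusted p 2.6e-08). The 7 tumors spread little for this gene, with an SD of 0.25 on the log2 scale. How many of all genes separated tumors from vehicles without overlap was not counted. Per1 ran from 4.42 to 14.5 CPM (median 8.33) and overlapped the vehicles, with 1.04 (SE 0.39, edgeR adjusted p 0.040). Both calls ended when the vehicle library labelled tumor was taken as a vehicle (edgeR adjusted p 0.081 for Noct at 2.18, and 0.82 for Per1 at 0.19), and the Per1 call was also lost without the filter on low counts (0.11). These comparisons share the vehicles or the uninvolved livers with those above.

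Among vehicles of batch 1 (7 of each age), 3 of 10 members differed between 3 weeks and 5 months, where 24.2% of 14962 genes did. Per1 ran from 14.98 to 33.7 CPM (median 26.6) at 3 weeks and was lower at 5 months by -1.48 (SE 0.47, edgeR adjusted p 0.027). Per3 ran from 3.08 to 13.96 CPM (median 7.33) at 3 weeks, against 0.520 to 5.98 CPM (median 2.19) in the 8 vehicles of 5 months, and changed by -1.70 (SE 0.56, edgeR adjusted p 0.033). Nr1d1 rose by 1.201 (SE 0.39, edgeR adjusted p 0.031), from 3.37 to 34.6 CPM (median 15.6) at 3 weeks to 13.7 to 64.0 CPM (median 34.2) in those 8. The ages overlapped for each of them, and all 3 calls were lost without the filter on low counts (edgeR adjusted p 0.12, 0.11 and 0.14).

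From 5 to 10 months, Ciart was the only 1 of 10 members to pass, beside 14.1% of 14962 genes. It ran from 0.124 to 6.90 CPM (median 0.811) in the 8 vehicles of 5 months, of which the 7 of batch 1 entered the test. At 10 months it ran from 0.115 to 0.763 CPM (median 0.315), with overlap. Ciart changed by -2.50 (SE 0.77, edgeR adjusted p 0.036). Of the 5-month vehicles tested, 5 and 6 had 6.90 and 2.86 CPM, vehicle 9 had 1.94 CPM and vehicles 1 to 4 had 0.124 to 0.483 CPM. The call was lost without the filter on low counts (0.069) and when the library labelled tumor was added to the 10-month vehicles (0.061). Noct had -2.57 (SE 0.89, edgeR adjusted p 0.061), with vehicles 4 and 6 of 5 months the only ones above 15.1 CPM.

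The other genes of the clock were read from a list of 11 further core genes. Between high-risk and low-risk livers of 5 months 3 of 11 passed, beside 38.9% of all genes, 1 higher and 2 lower, among them Cry2, a repressor, at -0.91 (SE 0.17), and Csnk1e, a kinase of PER proteins, at 0.62 (SE 0.13). The list's median was 0.02. Csnk1e was also higher in uninvolved livers than in low-risk livers (0.77, SE 0.14), where 4 of 11 passed, 2 in each direction, beside 52.4% of all genes. It was higher than in vehicles too (1.05, SE 0.13), where 8 of 11 passed, 3 higher and 5 lower, beside 57.7% of all genes. Clock itself, the partner of ARNTL, passed in tumors against vehicles at -0.30 (SE 0.08). There 5 of 11 passed, 2 higher and 3 lower, beside 45.9% of all genes. In 3-week TBT livers and in low-risk livers against vehicles of either later age, 0 of the 10 or 11 tested passed.

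Of 9 further clock outputs, 3 passed between high-risk and low-risk livers of 5 months, beside 38.9% of all genes. The PAR bZIP factors Tef and Hlf, relatives of Dbp, changed by -1.20 (SE 0.37) and -1.10 (SE 0.21), and Nampt, an enzyme of NAD synthesis, rose by 0.39 (SE 0.10). Nfil3 was lower in uninvolved livers (-1.13, SE 0.28) and in tumors (-1.04, SE 0.15) than in vehicles. In uninvolved livers against vehicles 3 of 9 passed, 2 higher and 1 lower, beside 57.7% of all genes. In tumors against vehicles 6 of 9 passed, 4 higher and 2 lower, beside 45.9% of all genes.

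Lists of genes that respond to signals known to reach the liver clock were counted in the same comparisons. Between high-risk and low-risk livers of 5 months, 38.9% of all genes were called, 20.3% higher and 18.5% lower. Of 10 feeding and fasting genes 5 passed between high-risk and low-risk livers of 5 months, 3 higher and 2 lower. The higher genes were Igfbp1 (2.26, SE 0.36), Ppargc1a (0.80, SE 0.22) and Fgf21 (1.25, SE 0.36). The 2 lower genes are not named here, the other 5 did not pass, and the median of the list was 0.07. Of 7 glucocorticoid-responsive genes 2 passed, Sgk1 (1.88, SE 0.34) and Tat (0.61, SE 0.20), while the median of the list was -0.08. Of 5 temperature-responsive genes 1 passed, Hspa8 (-0.53, SE 0.21). Immediate early genes passed in 3 of 7 cases, Nr4a1 (2.10, SE 0.30), Atf3 (2.36, SE 0.41) and Jun (1.15, SE 0.23), all higher. Higher immediate early genes were also counted in the 4 comparisons in which Per1 rose. They were 5 of 7 in uninvolved livers against low-risk livers (27.7% of all genes called higher) and 5 of 7 against vehicles (31.2%). They were 2 of 7 in 5-month high-risk livers against vehicles (8.47%) and 4 of 7 in tumors against vehicles (24.8%). Some of these comparisons share samples. In vehicles of 5 months against 3 weeks, where Per1 was lower, 1 of 7 was higher (11.9% of all genes) and 0 were lower (12.3%). In tumors against uninvolved livers 0 of the genes in these 4 lists passed. The part of feeding, stress or handling in the clock genes was not tested.

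Markers of other cells moved with the high-risk livers and tumors in which Noct was high. In high-risk against low-risk livers of 5 months, 38.9% of all genes passed, 20.3% higher and 18.5% lower. There, 6 of 6 proliferation genes and 4 of 5 bile duct genes were higher, and 2 of 5 hepatocyte genes were lower. Of 6 stellate cell genes 5 were higher and Lrat was lower (-0.65, SE 0.19). Of 6 macrophage genes 2 were higher and 1 lower, of 5 endothelial genes 1 was higher and 2 were lower, and of 4 B and plasma cell genes 2 were higher. Summed bile duct markers ran from 32.8 to 342 CPM (median 263) in high-risk livers and from 25.8 to 220.5 CPM (median 46.3) in low-risk livers. Summed proliferation genes ran from 30.04 to 255 CPM (median 159) against 6.79 to 44.01 CPM (median 16.8). At 10 months proliferation genes ran from 14.7 to 100.6 CPM in uninvolved livers, from 13.2 to 157 CPM in tumors and from 4.53 to 18.1 CPM in vehicles. At 3 weeks the same sum ran from 75.5 to 491 CPM in TBT livers and from 157 to 316 CPM in vehicles, and Noct from 4.48 to 46.8 CPM. In 5-month vehicles, summed proliferation genes ran from 4.94 to 97.95 CPM and bile duct markers from 22.6 to 272 CPM. These are group ranges, and whether the 2 vehicles high in Noct had the high sums was not examined. The part of cell composition in the level of Noct was not tested.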

How the data were processed

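RNA of mouse liver was measured in 75 libraries. The labels' protocols name RNeasy extraction with a DNase step and the TruSeq Stranded Total RNA kit. The authors deposited whole-number counts per gene, not scaled to depth or length; per the submitters' processing notes, Trim Galore, HISAT2 and featureCounts were used with the mm10 build, and per the deposited table's name the counts were adjusted between batches with ComBat-seq. Their versions, the strand setting and the settings of the batch adjustment are not given in the sources used here. Adjusted counts are no longer raw reads, which can narrow batch differences and shift low counts.

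Libraries of 3-week vehicle mouse 3 were summed, as were uninvolved livers 3 and 6, leaving 73 samples. CPM used TMM library sizes, except for Xist and Ddx3y, which used total counts. A prior of 0.5 was used on the log2 scale, and RPKM divided CPM by the union of exons. Tests were edgeR 4.0.16 quasi-likelihood F tests in R 4.3.3 (TMM, filterByExpr, robust), with Benjamini-Hochberg adjustment over all genes tested at 0.05. All non-tumor groups of 1 age entered 1 model, with batch as a covariate at 5 months and in the interaction; tumors were modelled with only the group compared, and vehicle ages in batch 1 together. Each standard error is the fold change divided by the square root of F. Total counts were 2.83 to 45.4 M per library, and low genes such as Ciart are limited by counting. Correlations were tested by permutation, exact under 10 samples and with 100000 resamples at 10, and the fits were tested on simulated counts. Alternatives were RLE factors, no filter, DESeq2 1.42.0, libraries left out, single batches, fits of 2 groups and replicate blocks. Libraries stood apart when below 5 M counts, above 35000 detected genes or above 10% of mitochondrial reads.

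The members, the gene lists, the tests and the alternatives were chosen with earlier results of these data known, so none is independent of them. All 10 members are reported, and some genes of the other lists are counted but not reported here by name. Genes named outside the members were those of the lists with the smallest adjusted p per comparison, and the 5 highest and 5 lowest correlations with Arntl and with Dbp among genes averaging 1 CPM or more. The replicate blocks for the age comparisons and for 4 tumor pairs, and leaving out low-risk liver 24, were added after the data were seen. Tumor and uninvolved liver with the same number carry 1 mouse identifier in the labels, and the deviations of a pair correlated between -0.27 and 0.65, over 0.1 in 1 of 6 pairs.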

Additional observations from a re-analysis of the deposited data

Results flagged for a closer look

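Within groups of 4 to 10 samples, 3 of 80 gene and group sets held a sample far from the others by Dixon's 95% limit, and chance alone gives about 1 in 20. These were Nr1d2 in 10-month uninvolved liver 1 (92.7 CPM, the highest of 5), Per2 in 10-month vehicle 7 (2.37 CPM, the lowest of 6) and Per3 in 3-week TBT liver 6 (40.0 CPM, the highest of 8). The vehicle library of 10 months labelled as a tumor, used in no comparison, lay above all 6 vehicles of its age for 4 members. It had 12.5 CPM of Npas2, where vehicles reached 9.67 CPM, and 24.7 CPM of Per1, where they reached 8.23 CPM. Its Nr1d1 was 32.6 CPM against at most 29.6 CPM, and its Noct was 173 CPM against at most 8.59 CPM, inside the range of the tumors.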

How the results depend on the processing

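The counts of members called moved by over 1.5 times as follows, and no direction of a called value reversed in the alternatives run. Of 4 members between high-risk and low-risk livers of 5 months, DESeq2 gave 7, batch 1 alone 1 and batch 2 alone 2. Over all genes these fits called 6155 of 14773, 773 of 16465 and 5403 of 19245, beside 5745 of 14773 in the main fit. Of 2 between high-risk livers and vehicles, the unfiltered fit gave 0, batch 1 alone 0, the fit without the libraries that stood apart 1, that of only 2 groups 1 and the replicate block 1. This last was Dbp (3.38, edgeR adjusted p 0.048), while Per1 (0.45) and Noct (1.65) did not pass there. Of all genes, the unfiltered fit called 1211 of 48210, batch 1 alone 0 of 16465 and the replicate block 65 of 14423. Without the libraries that stood apart 2903 of 14448 were called, with 2 groups 1338 of 14087 and in the main fit 2341 of 14773. Of 2 between tumors and uninvolved livers, the unfiltered fit gave 1, DESeq2 4 and the replicate block 4 over 6 pairs and 4 over 4 pairs. These fits called 3140 of 34395, 3927 of 16362, 1920 of 16404 and 3037 of 16728 genes. The main fit called 2961 of 16362. Of 2 between tumors and vehicles, the unfiltered fit gave 1, and taking the vehicle library labelled tumor as a vehicle gave 0. Their totals were 6943 of 32015 and 4206 of 15107 genes, beside 7016 of 15293 in the main fit. Of 3 between vehicles of 5 months and 3 weeks, the unfiltered fit gave 0 and the replicate block 1. Here the totals were 2172 of 45850 and 3551 of 13882 genes, beside 3616 of 14962 in the main fit. Of 1 between vehicles of 10 and 5 months, the unfiltered fit gave 0, DESeq2 2, the fit without the libraries that stood apart 2, the labelled vehicle library 0 and the replicate block 0. In that order they called 1128 of 45850, 3438 of 14962, 3700 of 14690, 671 of 14616 and 1512 of 14194 genes. The main fit called 2107 of 14962. The cause of these moves was not tested. Leaving out each sample gave 0 to 3 members for tumors against uninvolved livers, 3 to 3 for uninvolved against low-risk livers, 4 to 5 against vehicles and 0 to 0 for low-risk livers against vehicles. The totals for tumors against uninvolved livers then ran from 1580 of 16476 to 3948 of 16825 genes. Those for uninvolved livers ran from 7595 of 16314 to 9255 of 16670 against low-risk livers. Against vehicles they ran from 8490 of 16314 to 10014 of 16670. Of 4 correlations past the adjustment, 2 passed without the 2 farthest samples. Over single genes and alternatives, 1228 results kept their side of the threshold, 38 lost and 24 gained a call. Apart from tumors and uninvolved livers, shared numbers do not name a mouse and did not correlate in every pair. A call lost or gained under the replicate block there says nothing of a weaker or stronger effect. Depth limits Ciart and Npas2, with 1 to 3 counts in 7 sample values.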
